A study of Mus musculus with 7 samples.

Results

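Metallothioneins and zinc transporters were described in bulk RNA-seq of amygdala cells enriched for astrocytes from male C57BL/6J mice. The 8 members were taken by gene symbol from a table of 35976 genes, and all 8 were found and passed the filter on low counts. They were the metallothionein genes Mt1, Mt2 and Mt3, the zinc importers Slc39a12 (ZIP12) and Slc39a14 (ZIP14), the exporters Slc30a1 (ZNT1) and Slc30a10 (ZNT10), and Mtf1, the gene of the metal-responsive transcription factor. The study asked what part Egfr, the epidermal growth factor receptor gene, plays in astrocytes under chronic stress. Adeno-associated virus brought Cas9, driven by the astrocyte promoter GfaABC1D, into the amygdala of both groups more than 2 weeks earlier. With it came a guide that targets Egfr (sgEgfr) or, in controls, the Rosa26 locus (sgRosa). All mice of both groups were stressed by restraint on 7 days, were conditioned to fear on 1, and underwent extinction on 3, so no unstressed or uninfected group was compared. ACSA-2, an antigen on the surface of astrocytes, was the handle for enriching them from papain-dissociated tissue, and 5 ng of RNA went into each library. Neither age nor whether each library had its own mouse was stated in the sources used here. The p-values thus measure library spread, which may be technical.

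Metallothioneins are small cysteine-rich proteins that bind zinc and copper and release them on demand. MT1 and MT2 are made in most tissues and in the brain mainly by astrocytes, and their genes respond to zinc through MTF1 and also to glucocorticoids and cytokines, while MT3 is the brain-enriched form and is far less inducible by metals. SLC39 (ZIP) proteins move zinc into the cytosol and SLC30 (ZNT) proteins move it out or into vesicles. ZIP14 and ZNT10 also carry manganese.

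Mt1, Mt2 and Mt3 lie in the same direction within 27721 bases of mouse chromosome 8. In GENCODE M21 (GRCm38), Mt3 runs from 94152607 to 94154146, Mt2 from 94172664 to 94173568 and Mt1 from 94179082 to 94180327, all on the plus strand, and 5513 bases separate Mt2 from Mt1. Mt4, the neighbour on the other side of Mt3, had 0 counts in each of the 7 libraries, where 3 counts would stand for 0.133 to 0.513 CPM, the count scaled to sequencing depth. The other members lie apart, Slc30a10 at 185454848 to 185468762 and Slc30a1 at 191906767 to 191913247 of chromosome 1, Slc39a12 at 14388316 to 14494977 of chromosome 2, Mtf1 at 124802104 to 124849800 of chromosome 4, and Slc39a14 on the minus strand of chromosome 14 from 70303469 to 70351425.

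The promoters of 4 members are shown because MTF1 acts through metal response elements, and Mt1, Mt2 and Slc30a1 are its textbook targets, with Mt3 beside them as the less inducible neighbour. Each is the plus strand of GRCm38.p6 from RefSeq, 250 bases before to 50 after the start of a RefSeq transcript, at chr8:94178839-94179138 for Mt1, chr8:94172368-94172667 for Mt2, chr8:94152357-94152656 for Mt3 and chr1:191906531-191906830 for Slc30a1. Capitals mark matches to the core of the element, TGCACNC or TGCGCNC, on either strand.
Mt1: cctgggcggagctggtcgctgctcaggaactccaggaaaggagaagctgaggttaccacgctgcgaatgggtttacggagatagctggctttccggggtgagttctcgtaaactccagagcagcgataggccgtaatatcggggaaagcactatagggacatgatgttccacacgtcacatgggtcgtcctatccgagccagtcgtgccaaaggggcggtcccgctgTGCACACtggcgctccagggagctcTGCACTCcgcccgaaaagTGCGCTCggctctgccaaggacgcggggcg
Mt2: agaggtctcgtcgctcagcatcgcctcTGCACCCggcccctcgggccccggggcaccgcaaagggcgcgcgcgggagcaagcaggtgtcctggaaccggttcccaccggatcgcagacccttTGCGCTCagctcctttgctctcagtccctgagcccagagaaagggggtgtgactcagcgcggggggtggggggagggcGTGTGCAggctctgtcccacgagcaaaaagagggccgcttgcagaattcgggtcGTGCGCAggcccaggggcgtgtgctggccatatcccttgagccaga
Mt3: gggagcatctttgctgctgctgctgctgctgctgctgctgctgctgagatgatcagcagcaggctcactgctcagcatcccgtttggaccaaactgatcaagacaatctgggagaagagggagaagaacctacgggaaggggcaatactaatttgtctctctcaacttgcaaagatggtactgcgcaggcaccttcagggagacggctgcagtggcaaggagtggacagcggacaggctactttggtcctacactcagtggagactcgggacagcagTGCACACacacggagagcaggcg
Slc30a1: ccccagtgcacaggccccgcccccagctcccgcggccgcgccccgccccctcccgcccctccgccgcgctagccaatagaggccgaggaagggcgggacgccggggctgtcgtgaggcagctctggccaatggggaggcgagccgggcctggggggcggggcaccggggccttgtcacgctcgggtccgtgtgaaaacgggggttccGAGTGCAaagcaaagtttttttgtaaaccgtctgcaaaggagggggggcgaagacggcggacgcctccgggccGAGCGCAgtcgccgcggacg
Of the 8 members, 7 matched a window in the table, Slc39a14 being the other one. The Mt2 window held 4 matches, those of Mt1 and Slc30a10 3 each, that of Slc30a1 2, that of Mt3 1, and those of Slc39a12 and Mtf1 0. In Slc30a10, 2 of the 3 matches overlapped, lying on opposite strands of nearly the same bases. Of 32851 promoter windows of this length, 25.7% held at least 1 match, 7.11% at least 2, 1.97% at least 3 and 0.517% at least 4. Positions depend on the start used, since GENCODE lists Mt1 transcripts that begin 122 and 152 bases downstream of the start used here, and Mt3 transcripts that begin 139 bases downstream. For Mt2, no GENCODE transcript begins at the start used, and both lie downstream of it, by 46 and 242 bases. Counted from the nearer one, the farthest upstream of the 4 Mt2 matches falls outside the 250 bases before the start, so the count of 4 depends on the RefSeq start. A match is a string of letters and was not tested as a binding site.

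**Figure D1:**
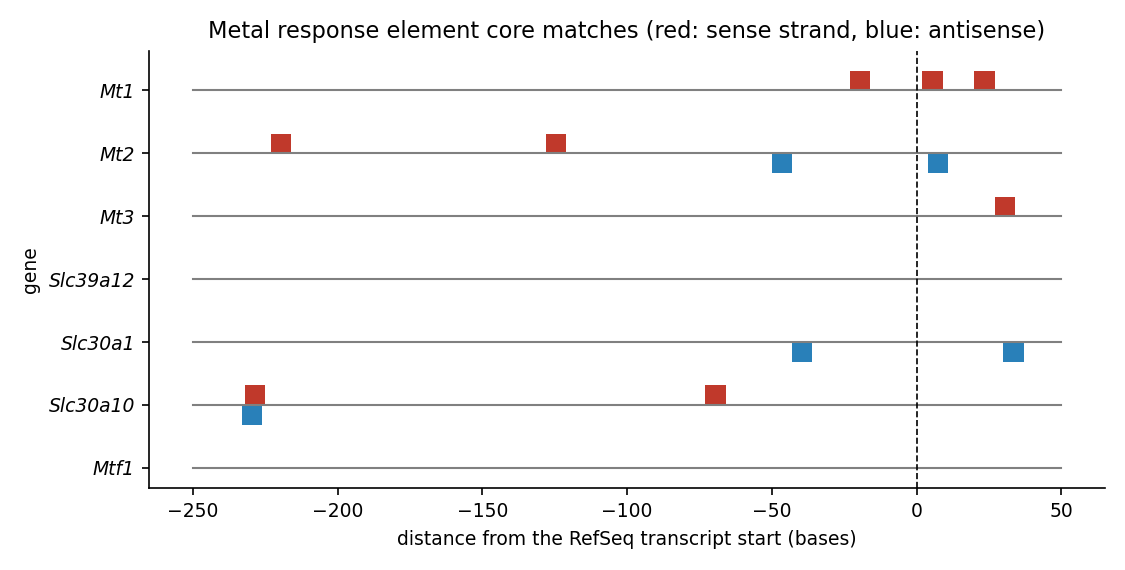
Matches to the metal response element core in promoter windows of 7 members; the x axis is the distance in bases from the RefSeq transcript start, red boxes lie on the sense strand and blue boxes on the antisense strand. The Mt2 window held 4 matches and that of Mt1 3, while those of Slc39a12 and Mtf1 held 0.

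Total counts lay between 14983594 and 22579222 in sgEgfr libraries and between 5852870 and 18345655 in sgRosa libraries. The libraries sgRosa 3 and sgRosa 4 were nearly as alike as sampling allows (chi-square of 1.04 per degree of freedom over genes, against 14.8 to 158 for the other 20 pairs). Their sum served as a single sample, sgRosa 3+4, so each guide had 3 samples. Egfr itself had a log2 fold change of -0.13 (SE 0.54, edgeR adjusted p = 0.997). The site of its guide was not stated in the sources used here, so a count over the whole gene does not check the labels. All 19 astrocyte markers were detected, and their counts summed to 11907 to 16550 CPM in sgEgfr and 7634 to 18112 CPM in sgRosa. The 12 oligodendrocyte markers summed to more, 81325 to 143825 CPM in sgEgfr and 72268 to 107692 CPM in sgRosa, so the libraries were mixed in cell type. In such bulk samples, fewer cells of a type and less RNA per cell cannot be told apart.

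Metallothioneins together made up 0.0808% to 0.135% of all counts in sgEgfr samples and 0.0581% to 0.138% in sgRosa samples. To compare genes, levels were divided by the summed length of the gene's exons in GENCODE M21, and on this scale the metallothioneins were the 3 highest members. Mt1 stood at 586 ± 114 CPM per kb in sgEgfr and 426 ± 228 in sgRosa (SD, n = 3 each), Mt3 at 292 ± 47.4 in sgEgfr and 246 ± 121 in sgRosa, and Mt2 at 194 ± 42.3 in sgEgfr and 134 ± 83.7 in sgRosa. The order Mt1, Mt3, Mt2 held within 6 of 6 samples, although the ranges of neighbours in this order overlapped across samples. Slc39a12 followed at 42.1 ± 3.55 CPM per kb in sgEgfr and 30.5 ± 9.84 in sgRosa, below Mt2 in every sample and without overlap. Mtf1 was at 5.72 ± 0.782 CPM per kb in sgEgfr and 6.44 ± 0.461 in sgRosa, below Slc39a12 without overlap. The exporters Slc30a1 (2.02 ± 0.466 CPM per kb in sgEgfr and 2.91 ± 0.415 in sgRosa) and Slc30a10 (2.04 ± 0.557 in sgEgfr and 2.60 ± 0.875 in sgRosa) overlapped each other, with Slc30a1 the higher in 4 of 6 samples. Slc39a14 came last, at 0.5003 ± 0.0508 CPM per kb in sgEgfr and 0.463 ± 0.1104 in sgRosa. Its exons sum to 10550 bases, while the median length of its coding transcripts was only 621 bases. With median lengths in place of summed exons it ranked in place 6 of 8, above both exporters, so the order of the 3 lowest genes depended on the length used. Whether the transcripts behind that short median are complete was not checked.

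None of the 8 members passed the test between guides. Across 14936 genes, edgeR's quasi-likelihood test called 0 genes at an adjusted p under 0.05 (0% of those tested), and 401 (2.68%) had an unadjusted p under 0.05, with 0 of the 8 members among them. By sign, 5 members had positive and 3 negative log2 fold changes (62.5% positive, median 0.18), where 52.9% of all genes tested were positive with a median of 0.02. All 3 metallothioneins and both importers were on the positive side, and both exporters and Mtf1 on the negative side. The edgeR adjusted p was 0.997 for each member.

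**Figure D2:**
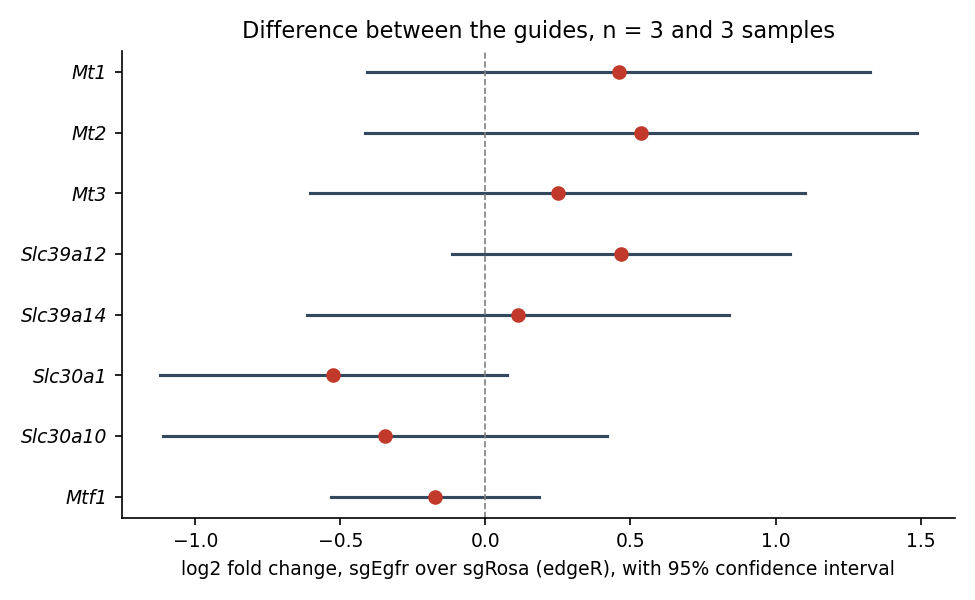
Log2 fold change of each member, sgEgfr over sgRosa, from edgeR (points) with the 95% confidence interval (lines), 3 samples per guide; the dashed line marks no difference. All 8 intervals include 0, and the narrowest is that of Mtf1, from -0.53 to 0.19.

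Mt1, a ubiquitous zinc-binding metallothionein, was at 814, 566 and 809.7 CPM (scaled with TMM) in sgEgfr 1 to 3, against 362, 371 and 859 CPM in sgRosa 1, 2 and 3+4. The sgRosa samples split into a pair of low ones and sgRosa 3+4, which lay above every sgEgfr sample, so the groups overlapped. Mt1 averaged 729.9 ± 142 CPM in sgEgfr and 531 ± 284 CPM in sgRosa (SD, n = 3 each). That is a log2 fold change of 0.46, with an SE of 0.37 and a 95% confidence interval of -0.41 to 1.33.

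Mt2, which encodes the close relative MT2, was low and high in the same samples as Mt1. It reached 125, 85.3 and 131 CPM in sgEgfr 1 to 3, against 46.8, 53.6 and 135 CPM in sgRosa 1, 2 and 3+4. Here too sgRosa 1 and sgRosa 2 were lowest and sgRosa 3+4 highest. Mt2 had a log2 fold change of 0.54, with an SE of 0.41 and a 95% confidence interval of -0.41 to 1.49.

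Mt3, the brain-enriched metallothionein, stood at 344, 253 and 337 CPM in sgEgfr 1 to 3, against 265, 132 and 389 CPM in sgRosa 1, 2 and 3+4. Only sgRosa 2 was low, and sgRosa 1 lay above sgEgfr 2. Mt3 had a log2 fold change of 0.25, with an SE of 0.37 and a 95% confidence interval of -0.60 to 1.10, and of -0.074 without sgRosa 2.

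**Figure D3:**
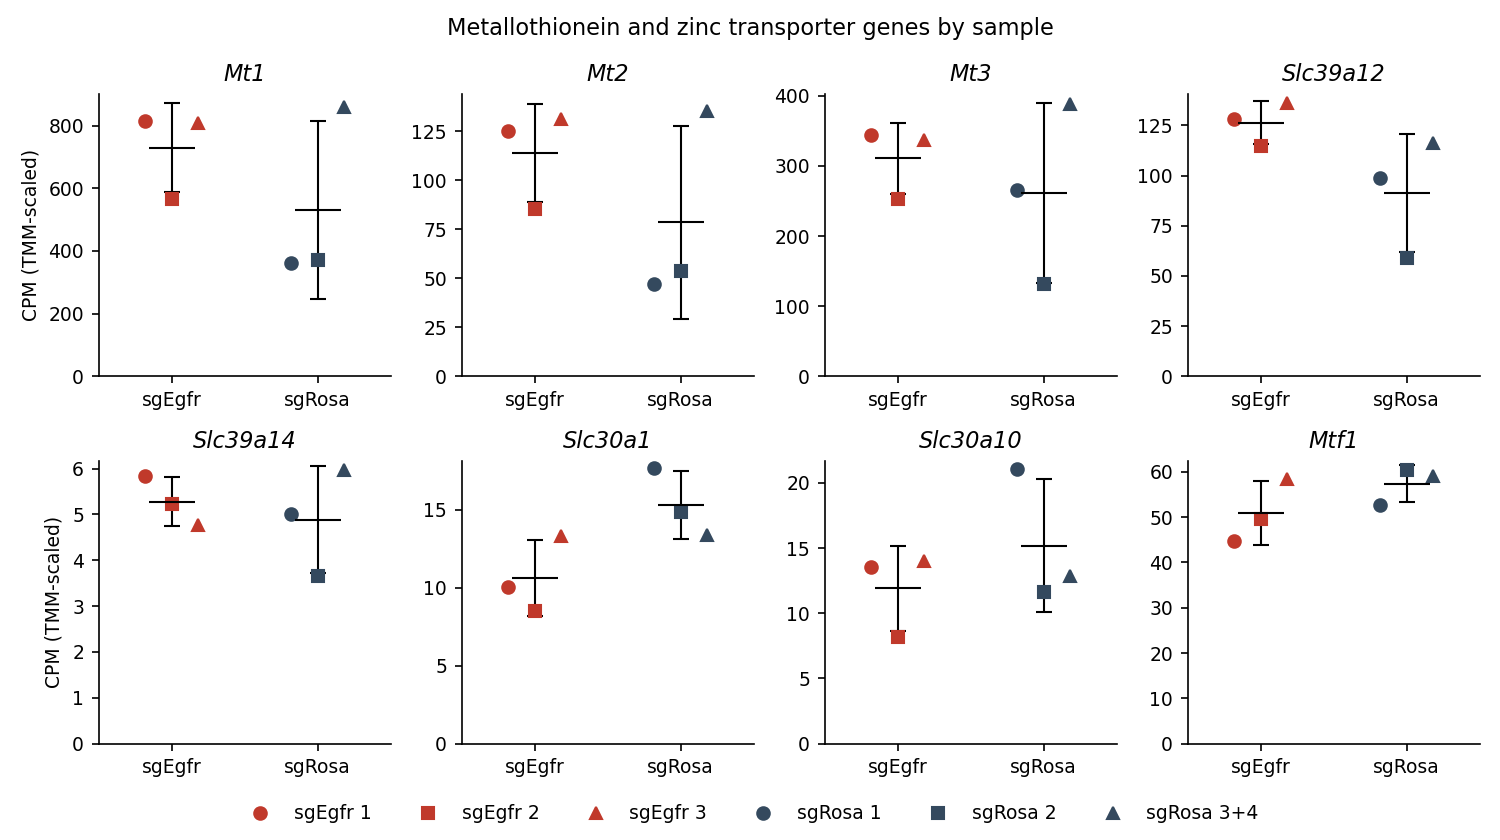
CPM (scaled with TMM) of the 8 members in the 3 sgEgfr samples (red, left) and the 3 sgRosa samples (blue, right); each point is a sample, bars are the mean and SD, and each axis starts at 0. The points of Mt1 range from 566 to 814 CPM in sgEgfr and from 362 to 859 CPM in sgRosa.

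The 2 inducible metallothioneins depended on which sgRosa samples were in the fit. Without sgRosa 3+4, the log2 fold change was 0.99 for Mt1 (edgeR unadjusted p = 0.00642) and 1.18 for Mt2 (edgeR unadjusted p = 0.00178), still not called (edgeR adjusted p = 0.738 for both). The controls left in that fit were sgRosa 1 and sgRosa 2, the samples lowest in both genes. In it 960 genes had an edgeR unadjusted p under 0.05, against 401 in the main fit. Without sgRosa 1 the log2 fold change was 0.25 for Mt1 and 0.27 for Mt2. With marker scores as covariates, Mt1 and Mt2 had 1.04 and 1.31 beside the endothelial score (SE 0.47 for both). They had 0.12 and 0.10 beside the heat shock score (SE 0.47 for both), and 0.31 and 0.38 beside the astrocyte score (SE 0.29 and 0.32). These fits had 6 samples, neither gene was called in any, and why the values moved was not tested.

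Among the importers, Slc39a12, which in the mouse brain is expressed mainly by astrocytes, had levels of 128, 115 and 136 CPM in sgEgfr 1 to 3, against 98.9, 58.8 and 116 CPM in sgRosa 1, 2 and 3+4. sgRosa 2 was lowest, and sgRosa 3+4 lay just above sgEgfr 2, so that a single sample overlapped. The mean was 126 ± 10.6 CPM in sgEgfr and 91.4 ± 29.5 CPM in sgRosa (SD, n = 3 each), a log2 fold change of 0.47 (SE 0.25, 95% confidence interval -0.11 to 1.05, edgeR adjusted p = 0.997), and 0.23 without sgRosa 2. Slc39a14, which carries zinc, iron and manganese, reached 5.83, 5.24 and 4.77 CPM in sgEgfr 1 to 3, against 5.01, 3.66 and 5.98 CPM in sgRosa 1, 2 and 3+4. It rested on 35 to 109 counts per library, and its groups overlapped (log2 fold change 0.11, SE 0.31), with values of -0.060 without sgRosa 2 and -0.0060 with the astrocyte score as a covariate.

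Among the exporters, Slc30a1, the plasma membrane zinc exporter, stood at 10.02, 8.51 and 13.3 CPM in sgEgfr 1 to 3, against 17.6, 14.8 and 13.4 CPM in sgRosa 1, 2 and 3+4. Every sgEgfr sample was below every sgRosa sample, but sgEgfr 3 (13.29 CPM) and sgRosa 3+4 (13.35 CPM) almost touched, and with CPM of total counts they stood at 13.46 and 13.34 and the groups overlapped. Slc30a1 was the 1 member of 8 whose ranges did not overlap, where 7.61% of all genes tested did not, 3.76% with sgEgfr higher and 3.85% with sgEgfr lower. Slc30a1 had a log2 fold change of -0.52, with an SE of 0.26 and a 95% confidence interval of -1.12 to 0.07, and it ran from -0.72 to -0.32 over the alternatives tried. Slc30a10, the manganese exporter, had levels of 13.6, 8.18 and 14.03 CPM in sgEgfr 1 to 3, against 21.03, 11.7 and 12.8 CPM in sgRosa 1, 2 and 3+4. sgRosa 1 was highest and the other samples overlapped (log2 fold change -0.35, SE 0.33), and the value was -0.038 without sgRosa 1 and 0.21 beside the heat shock score.

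Mtf1, whose protein senses zinc and switches on Mt1, Mt2 and Slc30a1, had the smallest standard error of the 8. It reached 44.6, 49.7 and 58.4 CPM in sgEgfr 1 to 3, against 52.7, 60.4 and 59.1 CPM in sgRosa 1, 2 and 3+4. The groups overlapped, with a log2 fold change of -0.17 (SE 0.15, 95% confidence interval -0.53 to 0.19, edgeR adjusted p = 0.997). On the opposite strand, 721 bases of Mtf1 overlap 1110065P20Rik, Slc30a10 overlaps Gm2061 and Slc30a1 overlaps 1700034H15Rik, which had 1617, 233 and 25 counts over all libraries, beside 5631, 1383 and 1336 for the members. Mt2 overlaps the antisense gene Gm45774, and the counting's strand setting was not stated in the sources used here. Reads from the shared bases may therefore come from either gene.

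Mt1 and Mt2 had nearly proportional levels across samples. Over the 6 samples, their log2 CPM had a Pearson r of 0.997 (exact two-sided permutation p = 0.00278, where 6 samples allow 0.00139 at least) and a Spearman rho of 0.943 (exact permutation p = 0.0167). Of 28 pairs of members, 0 passed a Benjamini-Hochberg adjusted p of 0.05, 7 had an unadjusted p under 0.05 for Pearson's r, and Mt1 with Mt2 had the smallest (exact permutation p adjusted 0.0778 for Pearson's r and 0.467 for Spearman's rho). Without sgRosa 1 and sgRosa 2, the samples farthest from the median of Mt1, r was 0.995. It was also 0.995 for deviations from the mean of each guide. There were 6.51, 6.63 and 6.18 counts of Mt1 per count of Mt2 in sgEgfr 1 to 3, against 7.75, 6.93 and 6.36 in sgRosa 1, 2 and 3+4.

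Mt3 had lower coefficients with Mt1 and Mt2, a difference that was not tested. The Pearson r of Mt1 with Mt3 was 0.807 (exact permutation p = 0.0264, adjusted 0.181) and the Spearman rho 0.829 (exact permutation p = 0.0583, adjusted 0.476). That of Mt2 with Mt3 was 0.760 (exact permutation p = 0.0389, adjusted 0.181), with a rho of 0.771 (exact permutation p = 0.103, adjusted 0.476). Without sgRosa 1 and sgRosa 2, r was 0.977 for Mt1 with Mt3 and 0.963 for Mt2 with Mt3. There were 2.37, 2.24 and 2.41 counts of Mt1 per count of Mt3 in sgEgfr 1 to 3, against 1.37, 2.82 and 2.21 in sgRosa 1, 2 and 3+4, so that sgRosa 1 lay farthest from the others. sgRosa 1 was thus low in Mt1 and Mt2 but not in Mt3, and sgRosa 2 was low in all 3.

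**Figure D4:**
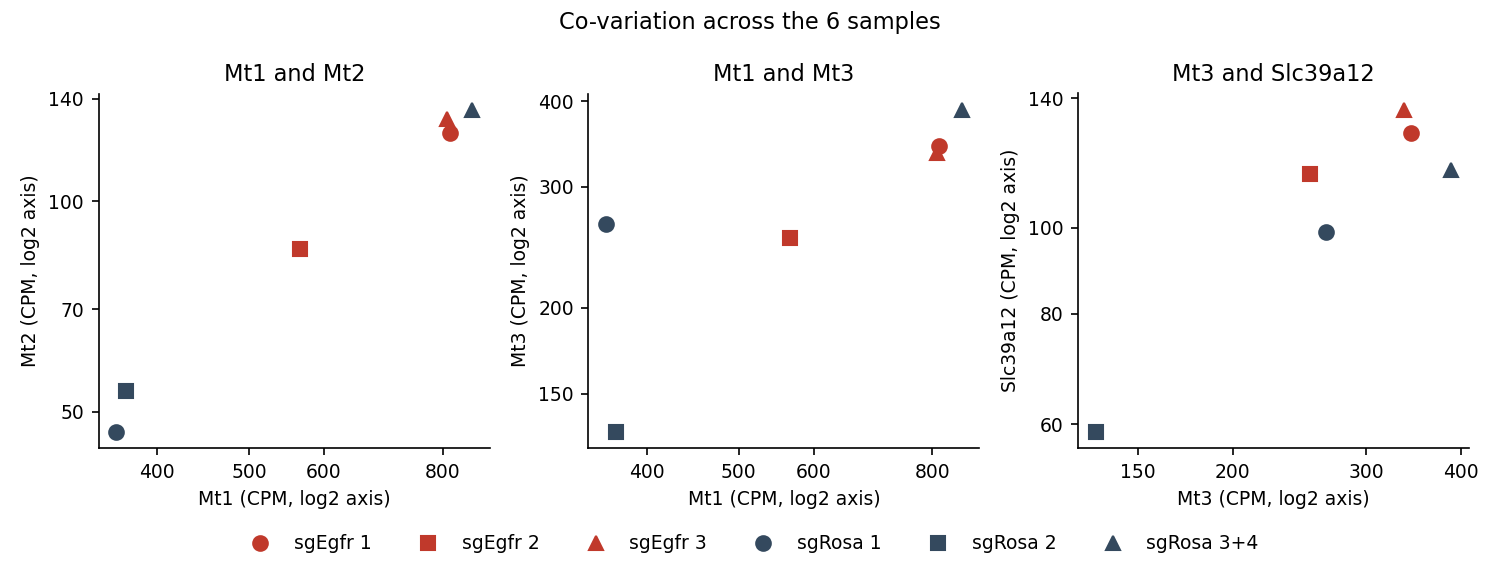
CPM of Mt2 against Mt1, Mt3 against Mt1 and Slc39a12 against Mt3, both axes on a log2 scale; each point is 1 of 6 samples, red for sgEgfr and blue for sgRosa. Mt1 and Mt2 fall on a line (r of 0.997), and sgRosa 1 leaves the line in the plot of Mt3 against Mt1.

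Mt3 also varied with Slc39a12 (Pearson r 0.932, exact permutation p = 0.0333, adjusted 0.181; Spearman rho 0.714, exact permutation p = 0.136, adjusted 0.476), and r was 0.811 without sgRosa 2 and sgRosa 3+4. With Slc39a14, Mt3 had a Pearson r of 0.904 (exact permutation p = 0.0306, adjusted 0.181; Spearman rho 0.771, exact permutation p = 0.103, adjusted 0.476), which was 0.222 without the same samples and so rested on them. Slc39a12 had a Pearson r of 0.785 with Mt1 (exact permutation p = 0.0306, adjusted 0.181; rho 0.714, exact permutation p = 0.136, adjusted 0.476) and of 0.751 with Mt2 (exact permutation p = 0.0472, adjusted 0.189; rho 0.771, exact permutation p = 0.103, adjusted 0.476). Without sgRosa 1 and sgRosa 2 these were 0.488 and 0.533. Mt1 had negative coefficients with Mtf1 and Slc30a1. The r of Mt1 was -0.16 with Mtf1 (exact permutation p = 0.776, adjusted 0.906; rho -0.09, exact permutation p = 0.919, adjusted 0.919) and -0.49 with Slc30a1 (exact permutation p = 0.315, adjusted 0.589; rho -0.49, exact permutation p = 0.356, adjusted 0.733). Without sgRosa 1 and sgRosa 2 these were 0.34 and 0.83, so the sign of both rested on those samples.

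Among 9039 genes with a mean of at least 10 CPM, Mt2 was the gene most like Mt1 over the 6 samples, and Mt1 the gene most like Mt2. Next for both came St5 (Pearson r 0.994 with Mt1 and 0.992 with Mt2) and the potassium channel gene Kcnn2 (0.985 with Mt1 and 0.977 with Mt2). Mt3 was the gene in place 370 for Mt1 and in place 509 for Mt2. Among the genes most like Mt3 were Fads1 and Minos1 (0.995 and 0.994), and for Slc39a12 the most alike were Fam213a, Lgals3bp and the small heat shock protein gene Hspb8 (0.988, 0.987 and 0.987). With so few samples many genes look alike, since 109 genes had an r over 0.9 with Mt1 and 300 with Mt3, and the values are given as a description.

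Other gene lists varied across the same samples. The astrocyte list stood at 16550, 11907 and 14513 summed CPM in sgEgfr 1 to 3, against 16034, 7634 and 18112 in sgRosa 1, 2 and 3+4. It was thus lowest in sgRosa 2, the sample lowest in Mt3 and Slc39a12. A list of 15 glucocorticoid-responsive genes summed to 2836, 3115 and 3103 CPM in sgEgfr 1 to 3, against 1154, 2777 and 2040 CPM in sgRosa 1, 2 and 3+4. That sum was lowest in sgRosa 1, the sample lowest in Mt1 and Mt2, but in sgRosa 2 it was near the sgEgfr samples while Mt1 and Mt2 were low. Within the list Sgk1 had the widest CPM range, at 164 in sgRosa 1 against 1218 in sgRosa 2 (scaled with TMM). The mean log2 CPM of the list was also lowest in sgRosa 1, at 5.19, against 6.05 and 5.81 in sgRosa 2 and 3+4. Not every gene followed, since Tsc22d3 was at 300, 215 and 312 CPM in sgRosa 1, 2 and 3+4. Fkbp5 was at 9.32, 12.4 and 8.08 CPM in these samples. All 15 genes of the glucocorticoid list had positive log2 fold changes (median 0.50), with 0 called and 5 at an unadjusted p under 0.05. The smallest p was for Cdkn1a (1.36), Dusp1 (1.16), Arrdc2 (0.90) and Plin4 (1.09). Of all genes tested, 52.9% were positive and 2.68% had an unadjusted p under 0.05, 1.31% with sgEgfr higher. Genes of a list can vary together across samples, so counts within a list are a description and not a test of the list. The part of the glucocorticoid list in the metallothionein levels was not tested.

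The sum of the 15 heat shock genes was lowest in sgRosa 1 too, at 4699, 5412 and 4633 CPM in sgEgfr 1 to 3, against 3303, 5298 and 4866 CPM in sgRosa 1, 2 and 3+4. Their mean log2 CPM was also lowest in sgRosa 1, at 5.97. Single genes differed, since Dnaja1 was highest in sgRosa 1 (104.9 CPM) and Hspb8 lowest in sgRosa 2 (4.34 CPM, scaled with TMM). Of the 15 heat shock genes 12 had positive log2 fold changes, with 0 called and the smallest p for Hspe1 (0.48), Hspb1 (1.61), Hsph1 (0.50) and Hspb8 (0.70). Endothelial markers summed to 94.2, 86.7 and 78.7 CPM in sgEgfr 1 to 3, against 81.7, 59.5 and 49.7 CPM in sgRosa 1, 2 and 3+4, with 9 of 12 positive, none at 0, 0 called, 4 at an unadjusted p under 0.05 and a median log2 fold change of 0.67. All 10 tested neuronal markers were positive (median 0.58, 3 at an unadjusted p under 0.05), as were 6 of 6 markers of oligodendrocyte precursors (median 0.95, 1 at an unadjusted p under 0.05) and 10 of 10 of microglia (median 0.48, 0 at an unadjusted p under 0.05), with 0 called in each list. Not all marker lists leaned this way. Of oligodendrocyte markers 6 of 12 were positive (median -0.02), and of fibroblast and mural markers 4 of 9 (median -0.01). Of astrocyte markers 12 of 19 were positive (median 0.16), and of tested ependymal and choroid plexus markers 8 of 9. The medians of the endothelial, neuronal, precursor and ependymal lists were above that of the glucocorticoid list. Those of the microglial, astrocyte, oligodendrocyte and fibroblast lists were below it.

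**Figure D5:**
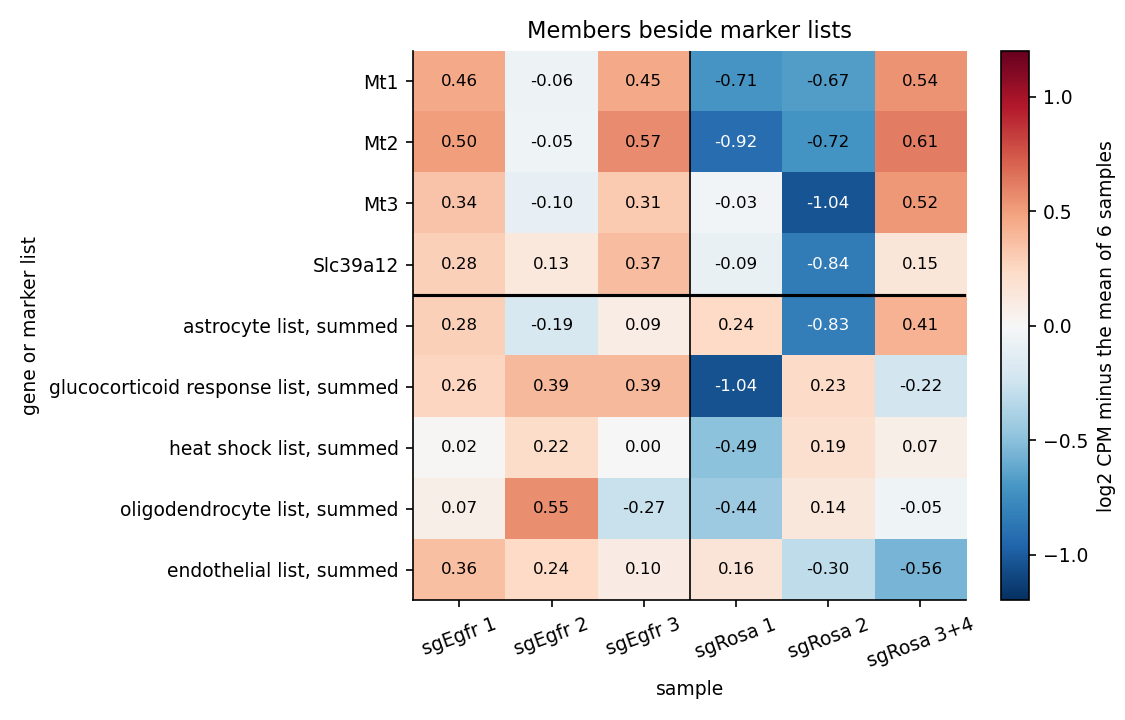
Log2 CPM minus the mean of the 6 samples for Mt1, Mt2, Mt3 and Slc39a12 (above the line) and for the summed CPM of 5 gene lists (below the line), with sgEgfr samples in the left columns and sgRosa samples in the right columns. sgRosa 2 is at -0.83 for the astrocyte list and -1.04 for Mt3, and sgRosa 1 at -1.04 for the glucocorticoid list and -0.71 for Mt1.

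Relative to astrocyte markers, Slc39a12 was the 1 member of 8 whose groups did not overlap. Its log2 CPM minus the mean log2 CPM of the 19 astrocyte markers was -2.09, -1.99 and -1.79 in sgEgfr 1 to 3, against -2.15, -2.14 and -2.40 in sgRosa 1, 2 and 3+4. Every sgEgfr sample was above every sgRosa sample, with means of -1.96 ± 0.156 in sgEgfr and -2.23 ± 0.146 in sgRosa (SD) and a difference of 0.28 (two-sided exact permutation p = 0.1, and groups of 3 allow none smaller). Of all genes tested, 0.643% had such ranges with sgEgfr higher on this scale, 1.98% with sgEgfr lower and 2.62% in either direction. On CPM the share in either direction was 7.61%. The astrocyte score ran from 8.03 in sgRosa 2 to 9.27 in sgRosa 3+4. Subtracting it adds this spread to genes that do not vary with it. The share among genes that vary with astrocyte markers was not computed, so 0.643% does not show how rare Slc39a12 is among them. Slc39a12 was singled out after the values of all 8 members were seen. Minus the same score, Slc30a1 had the largest mean difference of the 8, -0.78 (exact permutation p = 0.2), with overlapping groups. Mt1 had a mean difference of 0.32 (exact permutation p = 0.4), Mt2 0.44 (exact permutation p = 0.4) and Mt3 0.12 (exact permutation p = 0.5), each with overlapping groups. As a covariate in edgeR, the astrocyte score gave Slc39a12 a log2 fold change of 0.33, against 0.47 without it.

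The rest of the zinc transporter families held genes of both signs. Of 10 SLC30 exporter genes, 8 were tested, with 3 positive and 5 negative log2 fold changes, a median of -0.08 and 0 called. After Slc30a1, those with the smallest p were Slc30a2 (0.64, at 1.64 ± 0.163 CPM in sgEgfr and 1.05 ± 0.262 CPM in sgRosa, without overlap), Slc30a4 (-0.38) and Slc30a10. Slc30a8 had 0 counts in all libraries together, which allows up to 3 counts, and Slc30a3, the exporter that loads zinc into synaptic vesicles, had 33 counts and was not tested. Of 14 SLC39 importer genes, 13 were tested, with 9 positive and 4 negative, a median of 0.11 and 0 called.

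Slc39a3, a plasma membrane zinc importer, had the smallest p of the importers and stood at 73.3, 70.2 and 72.4 CPM in sgEgfr 1 to 3, against 98.1, 96.7 and 82.0 CPM in sgRosa 1, 2 and 3+4. The groups did not overlap (log2 fold change -0.36, SE 0.14, unadjusted p = 0.0317, edgeR adjusted p = 0.997). Slc39a11 had 0.56, with 15.1 ± 3.11 CPM in sgEgfr and 10.3 ± 0.702 CPM in sgRosa, and its groups did not overlap either, with sgEgfr higher. Slc39a1 had -0.70 with overlapping groups. Slc39a12 was the fourth of these. Of the 13 importers tested, 1 had groups apart with sgEgfr higher and 1 with sgEgfr lower. Of the 8 exporters tested, 1 was apart in each direction. Among all genes tested, 7.61% had such groups, 3.76% with sgEgfr higher and 3.85% with sgEgfr lower. Slc39a4, the zinc importer of the gut, was singled out after its values were seen. It had levels of 0.698, 0 and 22.3 CPM in sgEgfr 1 to 3, against 0.565, 0 and 4.13 CPM in sgRosa 1, 2 and 3+4. It was high in sgEgfr 3 and sgRosa 3+4. The sum of 10 markers of ependyma and choroid plexus was highest there too. That sum was 121, 40.9 and 975 CPM in sgEgfr 1 to 3, against 109.6, 57.3 and 382 CPM in sgRosa 1, 2 and 3+4. Foxj1, Ccdc153, Tmem212, Dynlrb2, Rarres2 and Folr1 were highest in the same samples, but not every marker was. Ttr was highest in sgRosa 1 (46.2 CPM, against 0.612 in sgEgfr 3 and 2.10 in sgRosa 3+4). Clic6 was highest in sgEgfr 1 (30.5 CPM), and Kcnj13 was at 2.45 CPM in sgEgfr 3 but 0.509 in sgRosa 3+4. The part of those cells in its level was not tested.

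Metallothioneins also bind copper and scavenge oxidants, and no gene of the lists for other metals or oxidative stress was called. Of 13 tested copper genes 10 were positive (median log2 fold change 0.22), led by Cp, the copper-carrying ferroxidase ceruloplasmin, at 36.1, 32.5 and 34.5 CPM in sgEgfr 1 to 3, against 25.5, 24.2 and 21.3 CPM in sgRosa 1, 2 and 3+4. Its groups did not overlap (log2 fold change 0.54, SE 0.15, unadjusted p = 0.00786, edgeR adjusted p = 0.997). Cp was the 1 copper gene of 13 with such groups, beside 7.61% of all genes tested. Ccs, Commd1 and Slc31a2 had 0.31, 0.29 and 0.30. Of 10 genes of manganese and iron transport 4 were positive, with Tmem165 at -0.53, the ferritin gene Fth1 at 0.87, Atp2c1 at -0.12 and the iron exporter gene Slc40a1 at -0.31. Of 9 tested targets of the oxidative stress factor NRF2 2 were positive (median -0.06), with G6pdx at 0.20, Srxn1 at -0.16, Nqo1 at -0.21 and Gclc at -0.14.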

How the data were processed

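Gene-level read counts, as deposited by the authors, were whole numbers without normalisation; a table of the series and 7 files of single libraries were equal. The submitters' processing notes name featureCounts 2.0.1, STAR 2.7.5c and edgeR 3.42.4, besides MultiQC 1.11 and FastQC 0.11.9, fastp 0.23.2, and mm10 as the build. Neither the annotation nor the strand setting nor the treatment of multi-mapping reads was stated in the sources used here. The members and lists were chosen with earlier results of these data known.

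Counts of sgRosa 3 and 4 were summed (chi-square over genes whose pair total reached 20). Genes were kept with filterByExpr (minimum count 10, total 15), TMM-scaled, and fitted on guide alone by glmQLFit and glmQLFTest (edgeR 4.0.16, R 4.3.3); p-values were Benjamini-Hochberg adjusted over 14936 genes and called under 0.05. The common biological coefficient of variation was 0.386. Log2 CPM had a prior count of 2, and list scores were its mean over list genes. Correlations used exact permutations of 6 samples. Intervals and floors of 3 counts cover counting error or library spread only. Named were the members, up to 4 list genes with the smallest p, and the 3 genes most like Mt1, Mt2, Mt3 and Slc39a12, of which 1 is not reported here; other lists' genes are summarised. Alternatives were other scalings, filters, DESeq2 1.42.0, limma-voom 3.58.1, a replicate block, marker covariates, 7 separate libraries and left-out libraries. Lengths came from GENCODE M21, promoters from RefSeq (GRCm38.p6), figures from matplotlib 3.10.9.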

Additional observations from a re-analysis of the deposited data

How the results depend on the processing

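The number of genes called was 0 under every alternative run, and no member was called under any. Of 21 alternatives, all 21 kept the sign of Mt1, Mt2, Slc39a12, Slc30a1 and Mtf1. Signs turned for Slc39a14 beside the astrocyte score (log2 fold change -0.0060) and without sgRosa 2 (-0.060), for Mt3 without sgRosa 2 (-0.074), and for Slc30a10 beside the heat shock score (0.21); the cause was not tested. With single libraries left out, the log2 fold change ran from 0.25 to 0.59 for Mt1, 0.27 to 0.69 for Mt2, -0.074 to 0.36 for Mt3, 0.23 to 0.53 for Slc39a12, -0.060 to 0.18 for Slc39a14, -0.72 to -0.41 for Slc30a1, -0.51 to -0.038 for Slc30a10 and -0.28 to -0.089 for Mtf1. Without sgRosa 3 and 4 it was 0.99, 1.18, 0.65, 0.68, 0.29, -0.61, -0.45 and -0.15 in that order of genes.

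The adjusted p of the Pearson r of Mt1 with Mt2 passed 0.05 with RLE size factors (r 0.997, exact permutation p adjusted 0.0389). It also passed with 7 libraries as separate samples (r 0.997, adjusted 0.0167), where sgRosa 3 and 4 stood as 2 points. With a sample left out, r ran from 0.996 to 0.999 for Mt1 with Mt2, where the exact permutation p adjusted ran from 0.156 to 0.467. On leaving out a sample, r ran from 0.757 to 0.990 for Mt1 with Mt3 and from 0.701 to 0.987 for Mt2 with Mt3. In alternatives chosen after seeing the data, the gap between the groups of Slc30a1 was -0.12 CPM with CPM of total counts, against 0.063 CPM with TMM, and with median transcript lengths Slc39a14 ranked 6, Slc30a1 7 and Slc30a10 8 of the members.

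Genes at an unadjusted p under 0.05 numbered 401, and 685 without a filter, 793 with limma-voom and quality weights, 113 with the heat shock covariate, 684 without sgEgfr 3, 236 without sgRosa 1 and 960 without sgRosa 3 and 4. With the replicate number as a block there were 708 and 0 called. Log2 fold changes were then 0.56 for Mt1, 0.68 for Mt2 and 0.52 for Slc39a12 (edgeR unadjusted p = 0.0681, 0.0435 and 0.032, adjusted 0.951 for each). Unadjusted p was also under 0.05 for Mt2 beside the endothelial score (edgeR, 0.0287). For Slc30a1 it was 0.0226 without sgEgfr 3 (edgeR) and 0.0263 with limma-voom and quality weights. Numbers were not taken as pairing the samples, since deviations of same-numbered samples correlated at -0.10, 0.52 and 0.54, and sgEgfr 1 correlated best with sgRosa 2. At 35 to 109 counts per library, Slc39a14 had the least depth of the members.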
